A study of Mus musculus with 2 samples.

Results

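Tnf, Il6, Osm, Il10, Tgfb1 and Inhba were chosen by name as 6 cytokine genes, and both count tables held a row for each. They are 6 of the 22780 genes listed in the control library and of the 21523 genes listed in the ISO library. CD45+ leukocytes were sorted from the hearts of WT C57BL6 female mice, 8 to 16 weeks old by the methods, after an i.p. injection of isoproterenol (ISO), a β-adrenergic agonist, at 200 mg/kg or of vehicle (PBS), in a model of Takotsubo syndrome (TTS). The hearts were taken at 24 hours, digested with collagenase and sorted for live CD45+ cells, and the cells of 3 hearts were pooled in each group. In each group 15000 cells were loaded for scRNA-Seq with the Chromium 3' v3 kit, in which a unique molecular identifier (UMI) stands for 1 captured RNA molecule. The sample labelled TTS is called the ISO library here. The labels repeat the ISO protocol for both samples, so the title and the paper were used to tell which one was the control.

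These 6 genes encode secreted proteins of 3 signaling groups. TNF acts through TNFR1 and TNFR2 and activates NF-κB. IL-6 and oncostatin M (OSM) belong to the gp130 family, whose shared receptor chain signals through STAT3, and myeloid cells and mast cells are known sources of both. IL-10 also signals through STAT3 and restrains macrophage activation. TGF-β1 is secreted in a latent form that must be activated outside the cell, and activin A, a homodimer of the Inhba product, is a relative of TGF-β1 that signals through SMAD2 and SMAD3. In injured myocardium these cytokines are known for effects on leukocyte recruitment, cardiomyocyte survival and fibrosis.

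Transcription and mRNA decay of several of these genes are governed by short sequence elements, and the elements are shown here because the members differ in them. On GRCm38, by the GENCODE annotation, Tnf lies at chr17:35199381-35202007 on the minus strand, and the other 5 genes lie on the plus strand, Il6 at chr5:30013114-30019981, Osm at chr11:4236420-4241026, Il10 at chr1:131019845-131024974, Tgfb1 at chr7:25687002-25705077 and Inhba at chr13:16011851-16031621. The 250 bases upstream of the start were taken from RefSeq (GRCm38.p6) for 4 members, each written 5′ to 3′ on the strand of its gene, at chr17:35202008-35202257 for Tnf, chr5:30012864-30013113 for Il6, chr7:25686752-25687001 for Tgfb1 and chr13:16011601-16011850 for Inhba. Capitals mark matches to the letters of 5 motifs.
Tnf: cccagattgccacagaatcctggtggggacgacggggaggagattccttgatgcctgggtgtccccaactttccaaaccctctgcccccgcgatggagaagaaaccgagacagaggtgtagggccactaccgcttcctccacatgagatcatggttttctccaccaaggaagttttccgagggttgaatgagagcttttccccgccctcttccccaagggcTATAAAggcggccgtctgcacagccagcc
Il6: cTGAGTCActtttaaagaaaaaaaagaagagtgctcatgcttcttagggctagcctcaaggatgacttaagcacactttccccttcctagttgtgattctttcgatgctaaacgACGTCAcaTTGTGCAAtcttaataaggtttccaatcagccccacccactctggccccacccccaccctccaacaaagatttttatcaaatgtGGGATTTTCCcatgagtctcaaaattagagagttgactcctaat
Tgfb1: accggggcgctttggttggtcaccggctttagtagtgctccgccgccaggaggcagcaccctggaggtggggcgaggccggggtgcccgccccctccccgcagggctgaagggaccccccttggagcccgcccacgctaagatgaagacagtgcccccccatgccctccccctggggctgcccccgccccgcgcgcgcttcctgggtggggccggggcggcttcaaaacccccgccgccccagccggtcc
Inhba: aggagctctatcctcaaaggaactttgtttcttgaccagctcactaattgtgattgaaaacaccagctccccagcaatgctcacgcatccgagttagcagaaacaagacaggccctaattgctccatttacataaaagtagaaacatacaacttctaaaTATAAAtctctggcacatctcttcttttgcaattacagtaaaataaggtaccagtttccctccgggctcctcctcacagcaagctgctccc
On both strands, the kB motif was searched as GGG, any 2 bases and then TTTCC, and the CRE core as ACGTCA. The AP-1 motif was searched as TGANTCA on both strands. The C/EBP motif was likewise searched as TTGNGCAA. TATAAA was searched on the strand of the gene. The Il6 stretch held GGGATTTTCC (kB), TGAGTCA (AP-1), TTGTGCAA (C/EBP) and ACGTCA (CRE core), and none of these matches overlapped. Of all 32851 promoters of this length, 1.41% held the kB letters, 6.75% the AP-1 letters, 2.61% the C/EBP letters and 6.47% the CRE core. The Tnf stretch held TATAAA 29 to 24 bases before the start and the Inhba stretch held it 91 to 86 bases before the start, as did 7.59% of all promoters somewhere in the window. The Tgfb1 stretch held no match to the 5 motifs. Its GC content was 75.2%, with 21 CpG, against 57.6% and 10 CpG for Tnf, 42.8% and 3 CpG for Il6, 43.2% and 3 CpG for Inhba, and a median of 52.4% and 6 CpG over all promoters. A match of letters is a description of the sequence and not evidence of a bound factor.

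AU-rich elements in the 3' UTR, built from the pentamer ATTTA, are known to shorten the life of cytokine mRNAs. The 30-base stretch with the most ATTTA in the 3' UTR of each member, taken from the GENCODE transcripts, is shown with the pentamers in capitals.
Tnf: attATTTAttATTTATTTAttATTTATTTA
Il6: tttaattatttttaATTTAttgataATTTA
Osm: aatccgttttatATTTAtaaggcctATTTA
Il10: cctcgtttgtacctctctccgaaatATTTA
Tgfb1: ccccgcccgcagcgcccggggctgtATTTA
Inhba: ctgattttttcaacttatATTTAttATTTA
The whole 3' UTR held 8 ATTTA in 764 bases in Tnf, 6 in 427 bases in Il6, 6 in 1017 bases in Osm, 6 in 706 bases in Il10, 1 in 135 bases in Tgfb1 and 21 in 4492 bases in Inhba. The nonamer TTATTTATT was found 5 times in Tnf, 3 times in Inhba and 0 times in the other 4 members. Over 21007 genes the median was 1 ATTTA in 799 bases, 19.1% of genes had 5 or more, and 6.98% had the nonamer. Per 1000 bases, the pentamers came to 14.1 in Il6, 10.5 in Tnf, 8.50 in Il10, 7.41 in Tgfb1, 5.90 in Osm and 4.67 in Inhba.

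The filters of the methods kept 5641 of 5927 control and 5437 of 5514 ISO barcodes, with median depths of 4790 and 8537 UMIs and median mitochondrial shares of 4.11% and 2.02%. Kept cells were placed in classes by the summed UMIs of marker lists per 10000 UMIs of the cell (for example at least 30 for classical monocytes and 60 for macrophages), and the thresholds were set after the data were seen. The control library held 1924 B cells, 202 T cells, 406 NK cells and 113 neutrophils, and the ISO library held 25, 27, 25 and 64. Classical monocytes (Ly6c2, Plac8, Chil3 and other markers) numbered 60 among control cells and 1428 among ISO cells, and nonclassical monocytes numbered 70 and 23. Macrophages (C1qa, C1qb, Adgre1 and other markers) were divided into 664 and 246 resident macrophages with Timd4, Lyve1 or Folr2, 1 and 761 macrophages high for Arg1 and Spp1, and 605 and 1110 remaining macrophages under both cuts. The classical monocyte and macrophage classes together made up a pool of 1330 control and 3545 ISO cells, which left out the nonclassical monocytes.

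The 10 leading genes of each class were set beside its markers. Since the classes were gated on these markers, finding them there is no check of the class names. The neutrophil class was led by 6 of its own markers, the resident macrophages by 6, the nonclassical monocytes by 5, and the classical monocytes and the Arg1/Spp1 macrophages by 3 each. Inhba was itself among the 10 leading genes of the classical monocytes, although it was on no marker list. The remaining macrophages were led by Mmp13 and Mmp12 and by none of the listed markers, and are therefore called by their rule. Their median level of classical monocyte markers was 5.2 UMIs per 10000 in the control and 61.4 in the ISO library. The 23 ISO nonclassical monocytes had a median of 18.4 UMIs per 10000 of their own markers and 39.0 of the classical ones, against 42.4 and 14.7 in the 70 control cells. The ratios of this class therefore do not compare like cells. In classical monocytes the median of the Arg1 macrophage list was 9.6 and 42.7 UMIs per 10000. In the ISO library 186 of the 1428 classical monocytes lay above their cut by less than 25% of it, and 479 barcodes outside the class reached 0.8 of it, so the border between monocytes and macrophages was a range rather than a gap. No doublet caller was run, and instead 1121 control and 492 ISO barcodes with markers of 2 lineages were set apart, with median depths of 12239 and 9508 UMIs. A further 140 control and 827 ISO barcodes passed no cut and are called ungated, and 15 barcode sequences were kept in both libraries.

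Levels are given as CPM, the UMIs of the gene scaled by the total UMIs of the class, with exact Poisson 95% intervals in parentheses, and ratios are log2 of ISO over control with 0.5 UMI added. Orders of classes cover those with at least 20 cells in the library. Shares of cells with a UMI have Clopper-Pearson 95% intervals. With 1 library per group no difference has a replicate check, no test was made, and these intervals cover counting error only. Levels summed over all kept cells do not separate the number of cells of a type from their RNA per cell, so levels by class are given beside them.

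Over all kept cells, the levels of Tnf, Il6, Osm, Il10 and Inhba were at least 2-fold higher in the ISO library, and that of Tgfb1 was higher by less. Of the 15976 genes compared, 6.90% were at least 2-fold higher and 31.5% at least 2-fold lower, and the median log2 ratio over all genes was −0.52. Tnf was at 372 CPM among control cells and 1361 CPM among ISO cells, a log2 ratio of 1.87 (1.85 to 1.90). Osm was at 72.6 and 399 CPM, a log2 ratio of 2.46 (2.40 to 2.51). Il6 was at 38.5 and 95.8 CPM, with 1.31 (1.23 to 1.40), and Il10 at 15.2 and 40.4 CPM, with 1.41 (1.28 to 1.54). These 4 intervals lay above a log2 ratio of 1. Tgfb1 was at 223 and 310 CPM, with 0.47 (0.44 to 0.51). Inhba showed the highest ratio of the 6 genes, with 50 UMIs among control cells and 4149 among ISO cells, and its log2 ratio was 5.95 (5.56 to 6.39).

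The classes that held these UMIs were not the same in the 2 libraries. Classical monocytes held 31.6% of the Tnf UMIs of the ISO library, 40.4% of Il6, 34.0% of Osm, 31.2% of Il10, 29.0% of Tgfb1 and 39.6% of Inhba. In the control library lymphocytes held 25.1% of the Tgfb1 UMIs, against 0.740% in the ISO library. The neutrophils that passed the gate held 8.46% of Osm in the control library, against 1.12%. When the classes of both libraries were weighted by their share of UMIs in the control, the log2 ratios became 1.19 for Tnf, 0.65 for Il6, 1.79 for Osm, 0.88 for Il10, 0.28 for Tgfb1 and 4.89 for Inhba. With the control levels of each class at the ISO mix of classes, the ratios were 0.56, 1.17, 0.92, −0.40, 0.65 and 0.35 in the same order. The ratio at a fixed mix exceeded that from the mix alone for Tnf, Osm, Il10 and Inhba, and was below it for Il6 and Tgfb1. This order is uncertain, since the ratios from the mix alone rest in part on few control cells. The Arg1/Spp1 macrophages, with 16.7% of the ISO UMIs, took their control level from 1 cell of 5601 UMIs. For Il6, 3 of the 60 control classical monocytes held 50% of the UMIs of their class. The ratios at a fixed mix gave 34.8% of the weight to barcodes of 2 lineages, so they do not rest on gated classes alone. They gave 17.3% to B cells, of which the ISO library held 25.

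**Figure D1:**
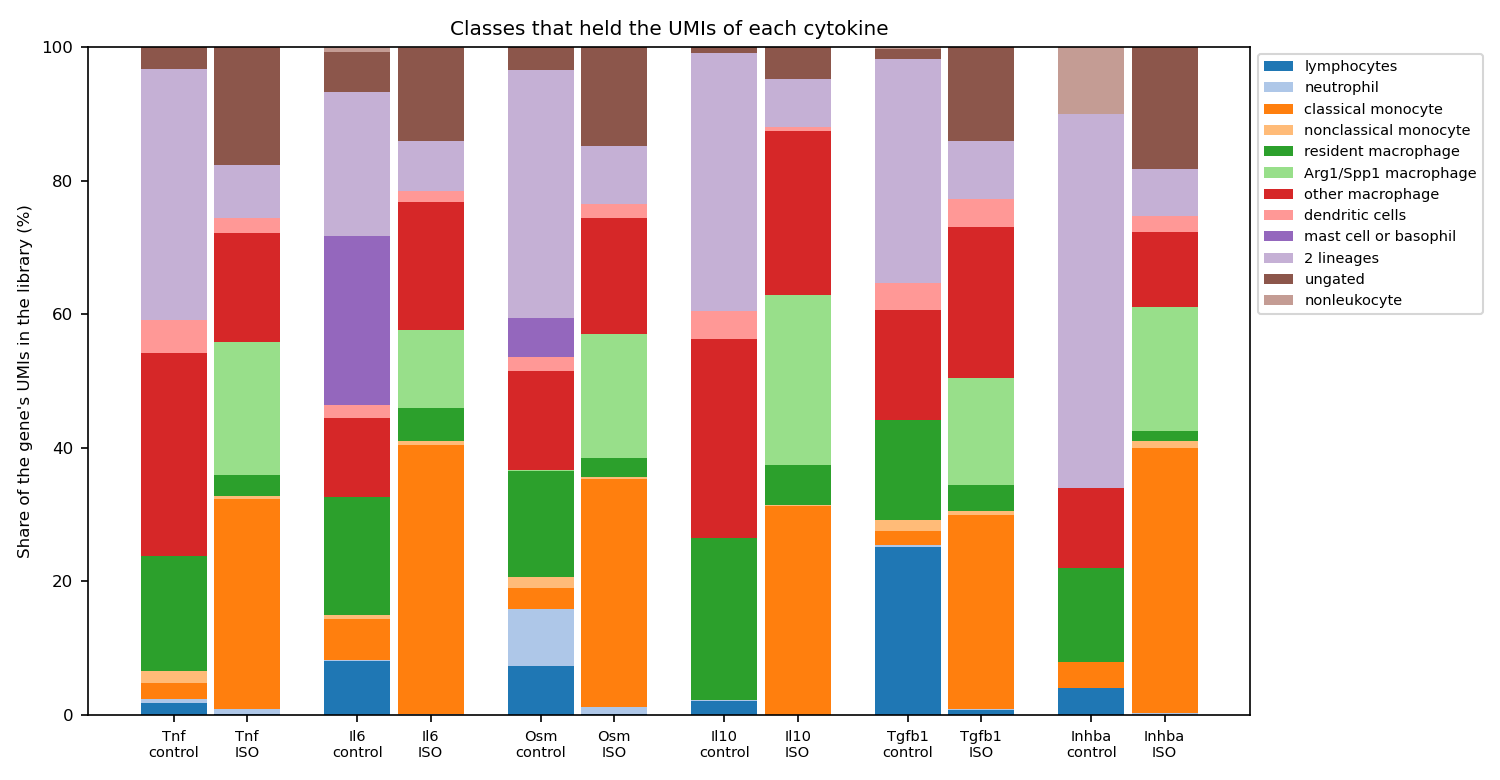
Bars give the share (%) of the UMIs of each cytokine that lay in each class, for the control (left bar of a pair) and the ISO library (right bar). Classical monocytes held between 29.0% and 40.4% of the UMIs of each cytokine in the ISO library, and the 9 control barcodes of the mast cell or basophil gate held 25.3% of the control Il6 UMIs.

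Within the pool of monocytes and macrophages, Osm and Inhba stood furthest above their control levels, and Tnf and Il6 were also at least 2-fold higher. Tnf was at 620 and 1422 CPM, a log2 ratio of 1.20 (1.16 to 1.23), Il6 at 45.6 and 107 CPM, with 1.23 (1.11 to 1.36), and Osm at 81.7 and 428 CPM, with 2.39 (2.30 to 2.48). Il10 was at 27.2 and 51.9 CPM, with 0.93 (0.77 to 1.10), and Tgfb1 at 247 and 326 CPM, with 0.40 (0.34 to 0.46). Inhba was at 1.20 and 78.3 CPM, with 5.99 (5.31 to 6.87). Thus 4 of the 6 members were at least 2-fold higher and 0 at least 2-fold lower, where 7.35% of 13826 genes were higher and 24.8% lower, with a median of −0.36. The summed B cell markers in this pool were 500 CPM among control cells and 66.4 CPM among ISO cells, and the dissociation stress list was at 12536 and 9274 CPM. Their part in the result was not tested.

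**Figure D2:**
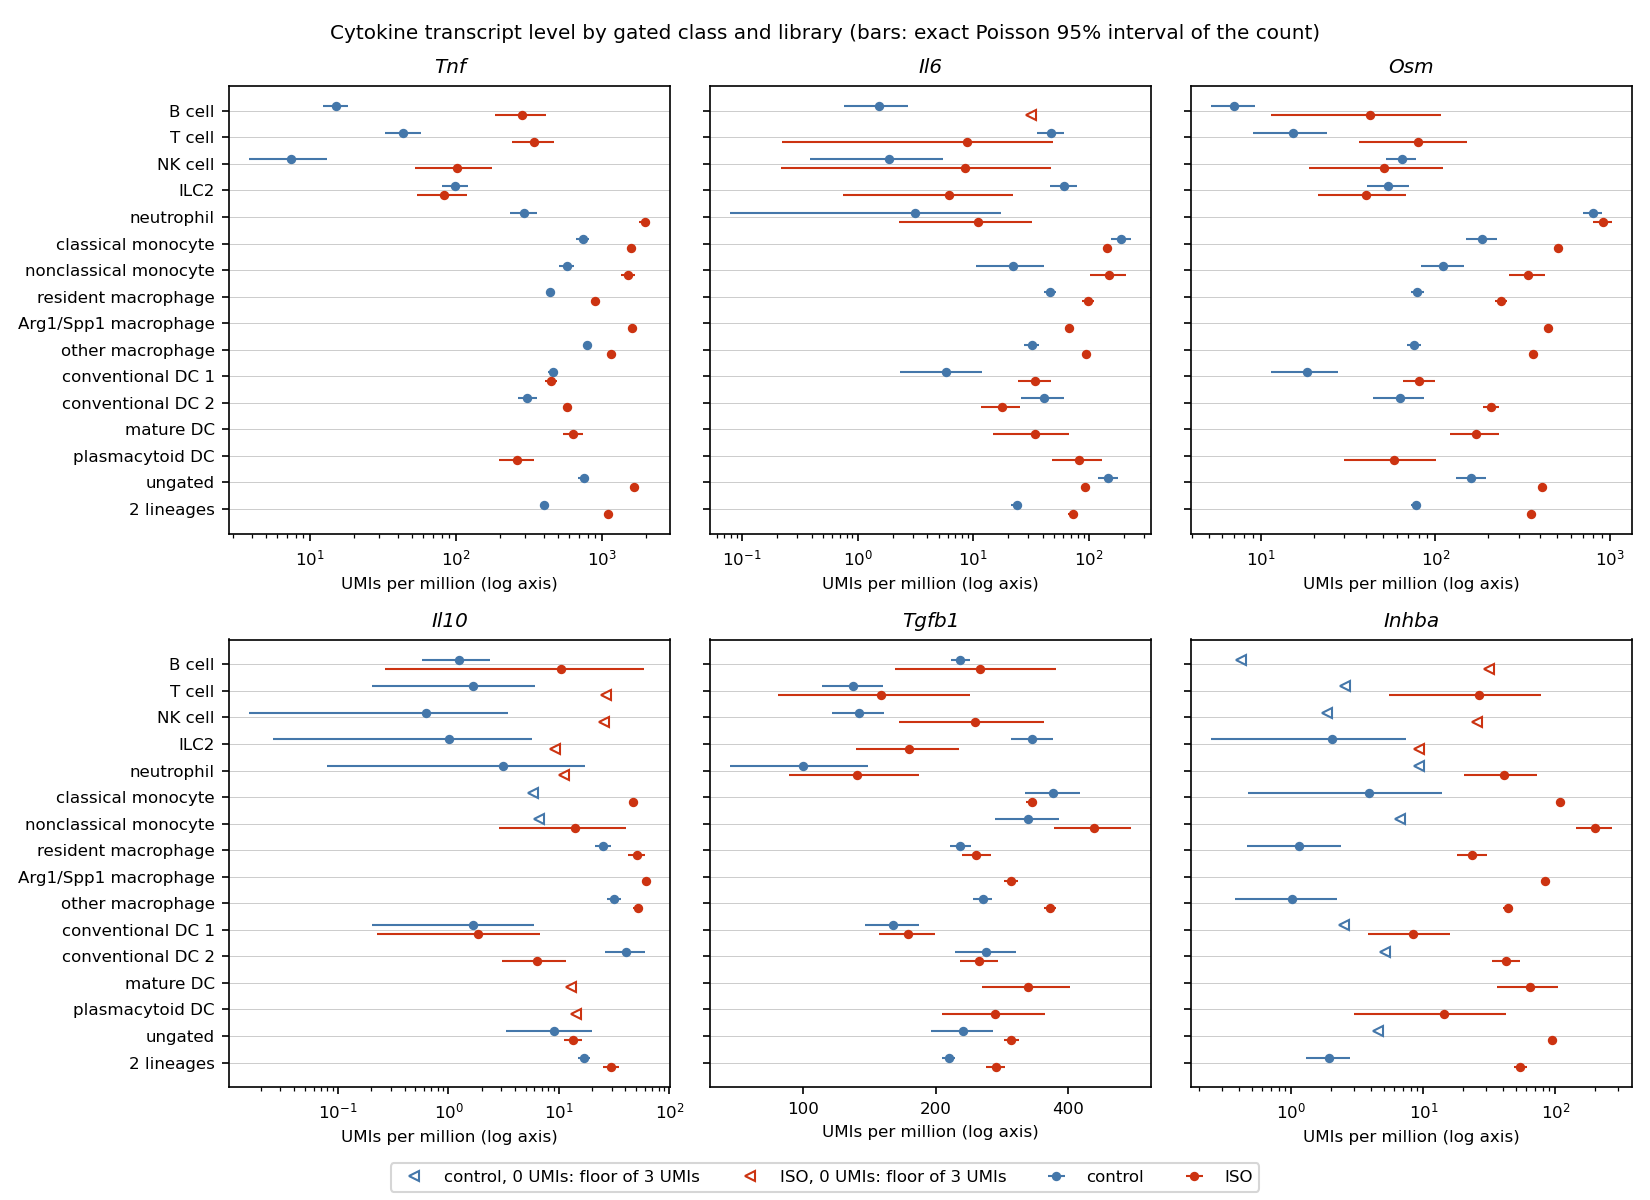
Points give the level of each cytokine in CPM (log axis) in each class for the control (blue) and ISO (red) library, with exact Poisson 95% intervals, and open triangles give a floor of 3 UMIs for a count of 0. Tnf and Osm were highest in ISO neutrophils, Il6 was highest in control classical monocytes among the classes drawn, and Inhba was at 3.85 CPM or less in each control class drawn.

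Tnf UMIs were found in every neutrophil, monocyte, macrophage and DC class of at least 20 cells. In ISO plasmacytoid DC the level, 264 CPM (199 to 343), overlapped that of ISO B cells, 284 CPM (187 to 414). The highest control levels were those of the remaining macrophages, 794 CPM (771 to 817), and of classical monocytes, 745 CPM (672 to 823), whose intervals overlapped. Nonclassical monocytes were at 575 CPM, conventional DC 1 at 465 CPM, resident macrophages at 440 CPM, conventional DC 2 at 310 CPM and neutrophils at 292 CPM. In the ISO library neutrophils had the highest level, 1977 CPM (1813 to 2151). They were followed by the Arg1/Spp1 macrophages at 1618 CPM (1592 to 1644), classical monocytes at 1583 CPM (1563 to 1603) and nonclassical monocytes at 1513 CPM (1354 to 1687), which overlapped neighbour by neighbour. The remaining macrophages were at 1154 CPM and resident macrophages at 896 CPM.

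The log2 ratio of Tnf was largest among the myeloid classes in neutrophils, at 2.75 (2.44 to 3.09), from 94 UMIs in 113 control cells and 538 UMIs in 64 ISO cells. It was 2.08 with a limit of 60 in place of 20 macrophage UMIs per 10000 in this class and 1.67 with barcodes of 2 lineages kept. It was 1.40 (1.16 to 1.64) in nonclassical monocytes, 1.09 (0.94 to 1.24) in classical monocytes, 1.03 (0.95 to 1.11) in resident macrophages and 0.54 (0.49 to 0.59) in the remaining macrophages. In conventional DC 1 the levels were 465 and 449 CPM, a log2 ratio of −0.05 (−0.23 to 0.13). After thinning of each cell to 1000 UMIs, 15.9% (9.72 to 24.0) of control and 53.1% (40.2 to 65.7) of ISO neutrophils had a Tnf UMI, and without thinning 25.7% and 78.1%. In classical monocytes the thinned shares were 31.7% and 52.4%, and the unthinned shares 48.3% and 81.4%.

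Tnf UMIs in B cells were taken as a rough measure of free RNA, although transcripts made by the B cells themselves would count in it. B cells had thinned shares of 1.09% among control cells and 16% among ISO cells, the latter from 4 of 25 cells. Their median depths were 3224 and 3206 UMIs. Their Tnf level was 15.0 CPM among control cells and 284 CPM among ISO cells, where 12 of the 27 UMIs came from 1 barcode. The summed classical monocyte markers in these B cells were 802 and 1737 CPM and the neutrophil markers 44.4 and 432 CPM. With the B cell level of each library subtracted, the log2 ratio of Tnf was 0.83 in classical monocytes, 0.53 in resident macrophages and 0.16 in the remaining macrophages. These values are rough, since the ISO B cell level rested on 27 UMIs in 25 cells. In T cells 28 of the 39 ISO Tnf UMIs came from 1 barcode, so the lymphocyte ratios of Tnf rested on few barcodes.

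In the control library the Il6 UMIs lay 17.7% in resident macrophages, 11.8% in the remaining macrophages, 21.4% in barcodes of 2 lineages, 8.10% in lymphocytes and 6.17% in classical monocytes. A small set of 9 barcodes in the mast cell or basophil gate held 406 Il6 UMIs, or 25.3% of the library's total, at a level of 8384 CPM (7588 to 9240). The Il6 UMIs of the 9 barcodes were 84, 81, 65, 46, 39, 33, 32, 26 and 0, so 8 of 9 were far above the median of 1 UMI in control cells with any. Mcpt8, a protease gene of basophils, was found in 7 of the 9, while Mcpt4, Cma1 and Tpsb2, which mark connective tissue mast cells, were at 0 in all 9. The same 9 barcodes held 178 Osm UMIs, 5.88% of the library's total, at 3676 CPM, with 7, 53, 22, 50, 21, 3, 3, 19 and 0 UMIs in the same order. The ISO library held 1 barcode of this gate, with 0 Il6 and 0 Osm UMIs, 0 Mcpt8 UMIs, and 35 Mcpt4, 100 Cma1 and 134 Tpsb2 UMIs. Mcpt4, Cpa3, Tpsb2 and Cma1 were also among the 10 leading genes of the barcodes of 2 lineages. The gate therefore need not hold all mast cells, and it gives no count of them. Of all kept barcodes with at least 3 Mcpt8 UMIs, 10 were in the control library, with 407 Il6 UMIs, and 1 was in the ISO library, with 23 Il6 UMIs. These barcodes were examined after their Il6 values were seen. Without the gate the log2 ratio of Il6 over all kept cells was 1.73 instead of 1.31.

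Among gated classes of at least 20 cells, the highest Il6 level in the control was that of classical monocytes, 190 CPM (155 to 232), with 147 CPM in ungated barcodes, and the next was that of ILC2, at 60.9 CPM (46.5 to 78.4), and in the ISO library nonclassical and classical monocytes led with 148 CPM (101 to 209) and 143 CPM (137 to 149). Of the 4 monocyte and macrophage classes that could be compared, only the classical monocytes had a lower Il6 level in the ISO library. Their log2 ratio was −0.43 (−0.71 to −0.11). Their control level rested on 99 UMIs, of which 3 cells held 50%, and with the gate cuts set at 0.5 times the ratio was 0.28. The thinned share of classical monocytes with an Il6 UMI was 11.7% (4.82 to 22.6) among control cells and 11.2% (9.61 to 12.96) among ISO cells, and without thinning 35.0% and 34.2%. In B cells the thinned share was 0.260% and 0 of 25 cells, and the unthinned B cell level was 1.5 CPM in the control. Il6 was higher in the ISO library in resident macrophages, with 1.07 (0.83 to 1.32), in the remaining macrophages, with 1.56 (1.34 to 1.80), and in nonclassical monocytes, with 2.69 (1.68 to 3.93, from 10 and 32 UMIs). In ILC2, which make type 2 cytokines, 60 Il6 UMIs were found in 165 control cells and 2 in 84 ISO cells, a log2 ratio of −3.00 (−6.39 to −1.40), and it was 0.03 when barcodes of 2 lineages were kept in their class.

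Among classes of at least 20 cells, Osm was highest in neutrophils in both libraries, with 796 CPM (702 to 900) among control cells and 908 CPM (798 to 1028) among ISO cells, and these intervals overlapped. The neutrophil log2 ratio was 0.19 (−0.07 to 0.45), and 45.1% of control and 46.9% of ISO neutrophils had an Osm UMI after thinning, against 64.6% and 70.3% before. In the monocyte, macrophage and conventional DC classes Osm was higher in the ISO library. The level in classical monocytes was 185 CPM (150 to 226) among control cells and 501 CPM (490 to 512) among ISO cells, a log2 ratio of 1.43 (1.15 to 1.75). Resident macrophages were at 78.8 and 238 CPM, with 1.59 (1.42 to 1.77), and the remaining macrophages at 75.7 and 362 CPM, with 2.26 (2.12 to 2.40). The thinned share of the remaining macrophages with an Osm UMI was 5.95% (4.20 to 8.14) among control cells and 25.04% (22.5 to 27.7) among ISO cells, against 0.833% and 4.0% of B cells. Conventional DC 1 and DC 2 were at 18.3 and 62.6 CPM among control cells and at 80.9 and 208 CPM among ISO cells, with log2 ratios of 2.12 and 1.72.

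Il10 was found in macrophages of both libraries and in classical monocytes of the ISO library. Control classical monocytes had 0 Il10 UMIs in 60 cells, and ISO classical monocytes had 699 UMIs in 1428 cells, at 46.5 CPM (43.1 to 50.04). The ISO level was at least 8.05-fold higher, with the control set at a floor of 3 counts in its library and the counting error of the ISO level left out. In resident macrophages Il10 was at 25.2 CPM (21.4 to 29.5) and 50.7 CPM (42.5 to 60.03), a log2 ratio of 1.01 (0.66 to 1.35), and in the remaining macrophages at 31.7 and 51.4 CPM, with 0.70 (0.46 to 0.95). The highest ISO level was that of the Arg1/Spp1 macrophages, 61.7 CPM (56.8 to 67.0). Il10 was concentrated in few cells, since 10 of the 1330 control cells and 54 of the 3545 ISO cells of the pool held 50% of its UMIs. The control level of conventional DC 2, 40.6 CPM, came to 20 of 24 UMIs from 1 cell. After thinning, 3.15% of ISO classical monocytes and 0 of 60 control cells had an Il10 UMI, where 0 of 60 allows a share of up to 5.0%, and 10.8% and 0 of 60 before thinning, and B cells had 0 in both libraries after thinning.

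Tgfb1 was the most evenly spread member, and over all kept cells and in the pool it had the smallest ratio of the 6 genes. Its control levels ran from 99.5 CPM in neutrophils to 369 CPM (319 to 425) in classical monocytes, and the levels of classical monocytes, ILC2 and nonclassical monocytes overlapped. Its ISO levels ran from 132 CPM in neutrophils to 458 CPM (372 to 558) in nonclassical monocytes. B cells were at 228 and 253 CPM. The log2 ratio was −0.16 (−0.37 to 0.06) in classical monocytes, and it was 0.09 when centred on the median of all genes. It was 0.12 (−0.02 to 0.26) in resident macrophages, 0.51 (0.42 to 0.60) in the remaining macrophages and −0.92 (−1.36 to −0.52) in ILC2, whose levels were 332 and 174 CPM. In the pool, 231 of 1330 control cells and 755 of 3545 ISO cells held 50% of the Tgfb1 UMIs, the broadest spread of the 6 genes.

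Inhba was at 1.20 CPM over all kept control cells. Of its 50 control UMIs, 28 were in barcodes of 2 lineages, 7 in resident macrophages, 6 in the remaining macrophages, 5 in nonleukocytes, 2 in classical monocytes and 2 in ILC2. In the ISO library nonclassical monocytes were at 199 CPM (144 to 268, from 43 UMIs in 6 cells), classical monocytes at 109 CPM (104 to 115), Arg1/Spp1 macrophages at 83.4 CPM (77.6 to 89.5), the remaining macrophages at 43.8 CPM and resident macrophages at 23.5 CPM. The ISO cells of the nonclassical class were higher for classical than for nonclassical monocyte markers. B cells, NK cells and ILC2 had 0 Inhba UMIs in the ISO library. The log2 ratio was 4.50 (2.97 to 7.87) in classical monocytes, with 2 and 1642 UMIs, 4.27 (3.23 to 5.73) in resident macrophages and 5.32 (4.31 to 6.89) in the remaining macrophages. Against 0 control UMIs, set at the same floor, the ISO level was at least 29.9-fold higher in nonclassical monocytes, 8.33-fold in conventional DC 2, 4.33-fold in neutrophils and 3.36-fold in conventional DC 1. The counting error of the ISO levels, from 43, 67, 11 and 9 UMIs in the same order, was left out of these bounds. With gate cuts at 2 times, conventional DC 2 had 0 Inhba UMIs in 31 control and 94 ISO cells, which gives no ratio. The thinned share of classical monocytes with an Inhba UMI was 1.67% among control cells and 7.70% (6.37 to 9.21) among ISO cells, and 3.33% and 24.1% before thinning, against 0 in B cells of both libraries. In the pool 69 of 3545 ISO cells held 50% of the Inhba UMIs, and the cell with the most held 69 UMIs.

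**Figure D3:**
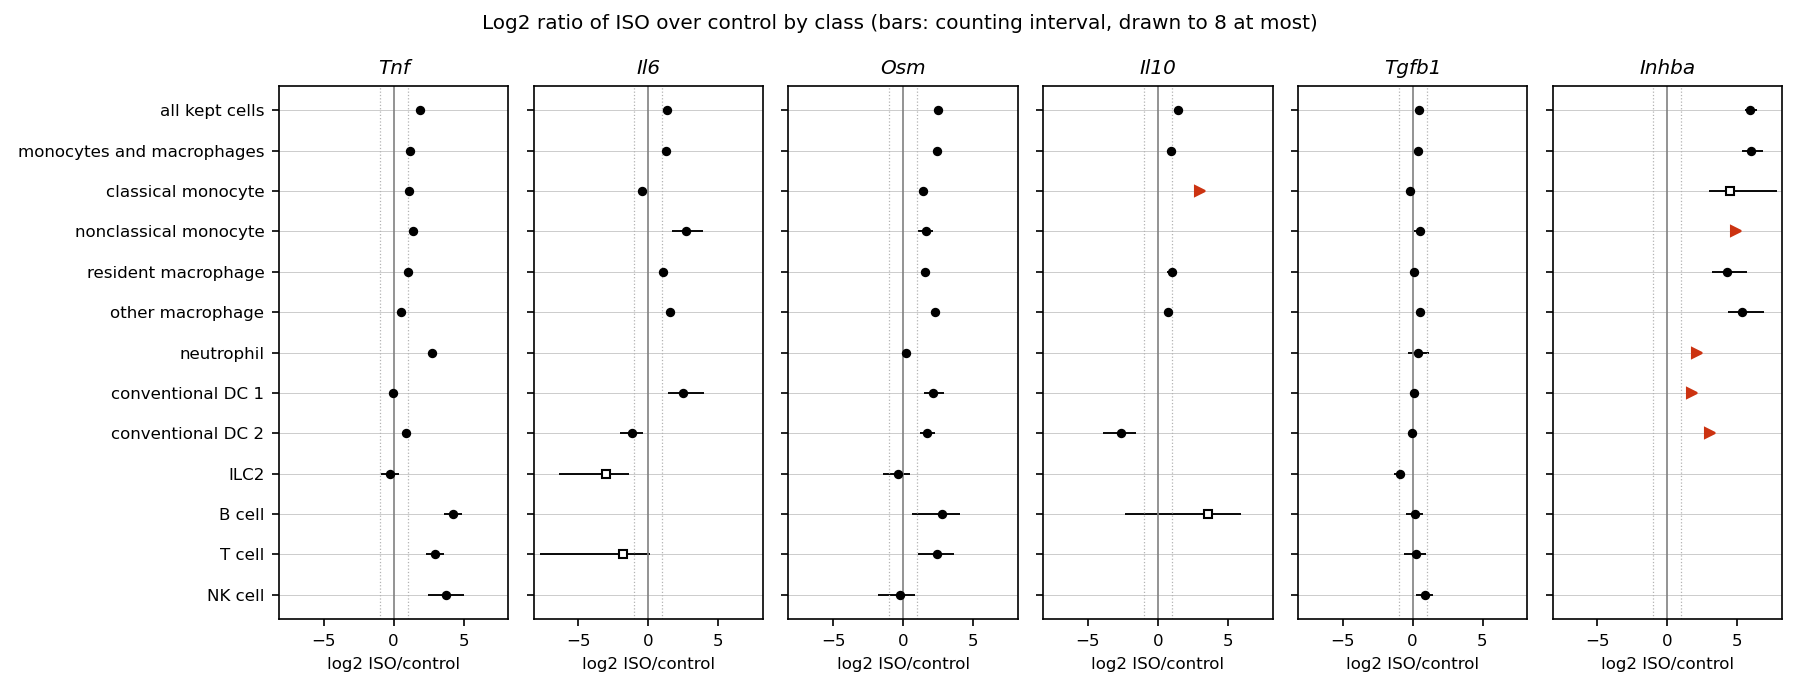
Points give the log2 ratio of ISO over control for each cytokine by class with its counting interval, open squares mark ratios with 1 to 3 UMIs in a library, and red triangles mark lower bounds against a count of 0. Osm and Inhba lay above 0 in each monocyte and macrophage class drawn, Tgfb1 lay between −0.92 and 0.90, and Il6 lay below 0 in classical monocytes, conventional DC 2, ILC2 and T cells, where it turned to 0.28, 0.23, 0.027 and 0.98 under other gates or with barcodes of 2 lineages kept.

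The number of members at least 2-fold higher is given by class beside the share of all genes. It was 4 of 6 in classical monocytes, where 11.7% of 11014 genes were higher and 21.0% lower, and 5 of 6 in resident macrophages, where 6.21% were higher and 10.2% lower. Some of these lay near the cut. Tnf, Il6 and Il10 in resident macrophages were at 1.03, 1.07 and 1.01, and Tnf in classical monocytes at 1.09, with intervals that reached below 1. Subtraction of the B cell level, a rough step resting on 25 ISO B cells, put Tnf under 2-fold in both classes, at 0.83 and 0.53. With this step Il10 in resident macrophages was at 0.75. The number of members higher was 3 of 6 in the remaining macrophages (7.22% higher and 18.9% lower), 4 of 5 with enough UMIs in nonclassical monocytes (8.69% and 12.1%) and 1 of 3 in neutrophils (10.2% and 11.3%). None of the members was at least 2-fold lower in these 5 classes. In conventional DC 2, 2 of 6 were higher and 2 lower (7.90% and 9.03% of genes). Both lower calls, Il6 and Il10, turned with gate cuts at 0.5 times, to 0.23 and 1.88, and with cuts at 2 times Inhba and Il10 had 0 UMIs in both libraries. In conventional DC 1, 2 of 4 were higher (8.10% and 8.27%), of which Il6 was at −0.58 with cuts at 2 times, and in ILC2, 1 of 4, Il6, was lower and 0 higher (6.94% higher and 6.22% lower). In B cells 2 of 3 members were higher (18.5% and 11.3%), in T cells 2 of 4 were higher and 1 lower (12.6% and 11.2%), and in NK cells 1 of 3 was higher (9.56% and 16.6%), each with 25 to 27 ISO cells. The lower call in T cells was Il6 on 1 ISO UMI, and its direction turned to 0.98 with barcodes of 2 lineages kept and to 0.57 with cuts at 0.5 times. Among barcodes of 2 lineages 4 of 6 were higher (6.33% and 14.8%), and among ungated barcodes 3 of 6 (9.84% and 24.9%).

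The levels of the members varied along the summed macrophage markers, from monocytes low for them to the macrophages highest for them. In the ISO pool, cells were divided at 30, 60, 100 and 200 macrophage UMIs per 10000, which gave 616, 802, 919, 839 and 369 cells. From the lowest bin to the highest, Inhba was at 130, 94.9, 77.3, 47.3 and 17.1 CPM. Each of these levels was below the previous one with no overlap of the counting intervals. Osm was at 500, 503, 440, 372 and 188 CPM, and Tnf at 1575, 1590, 1513, 1210 and 912 CPM. Il6 ran from 169 to 65.8 CPM, with 85.6 and 89.7 CPM in the third and the fourth bin. Il10 did not follow this order, with 33.5 CPM in the lowest bin and 56.0, 53.5, 60.2 and 48.3 CPM in the others, and Tgfb1 lay between 301 and 341 CPM in all 5. In the control library, whose lowest bins held 39 and 21 cells, Tnf was highest in the middle bin, at 1032 CPM, and lowest at 514 CPM in the 827 cells of the highest bin.

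**Figure D4:**
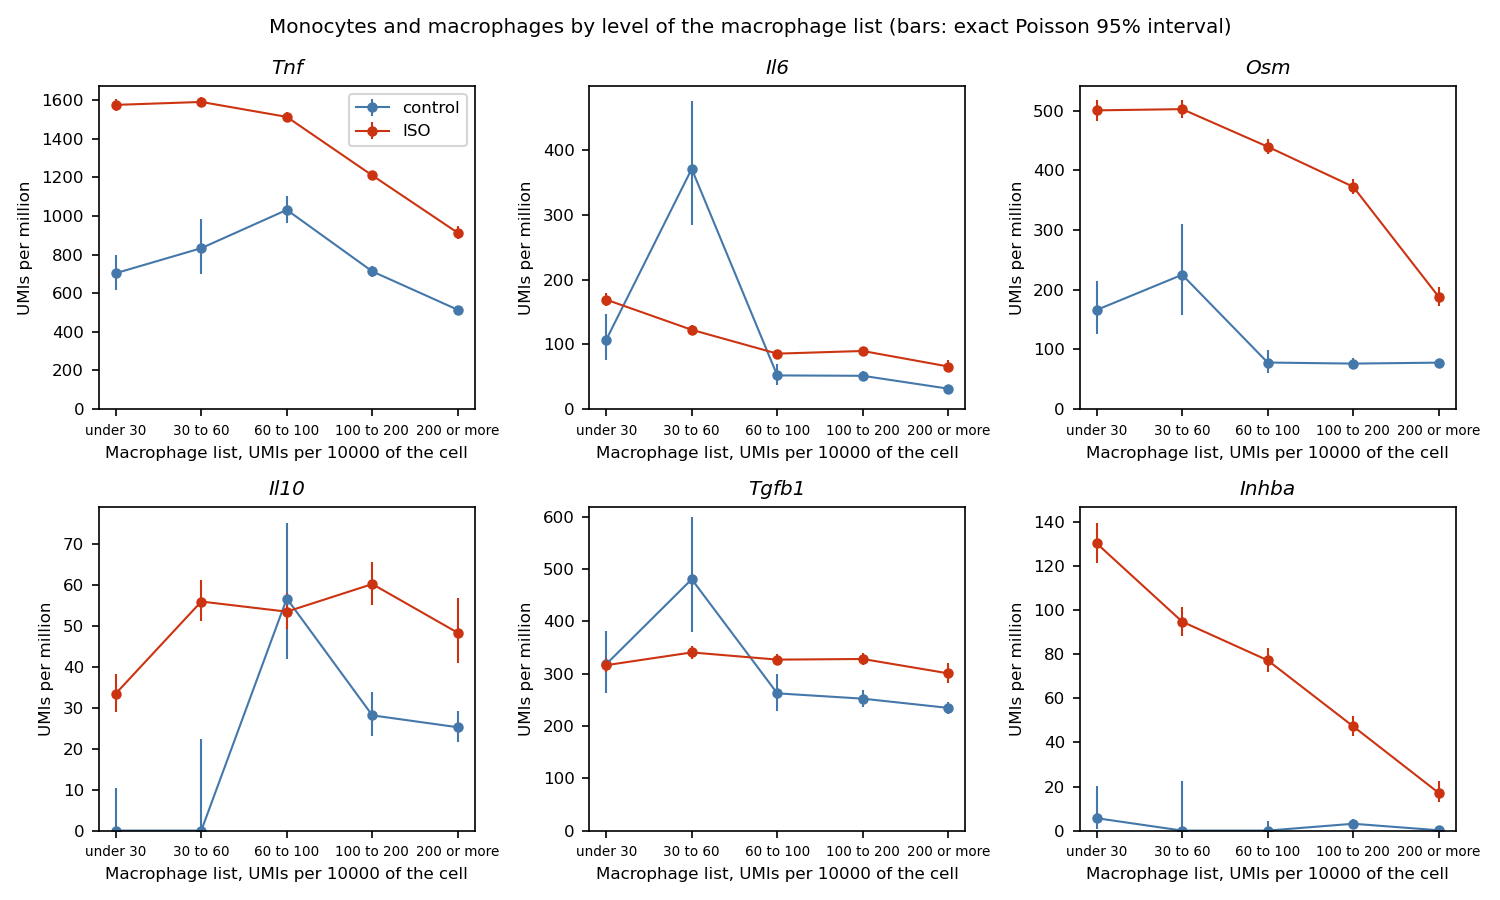
Points give the level of each cytokine in CPM in the pool of classical monocytes and macrophages, for the control (blue) and ISO (red) library. Cells were binned by their macrophage markers (UMIs per 10000 of the cell), and bars are exact Poisson 95% intervals. In the ISO library Inhba ran from 130 to 17.1 CPM across the bins and Tgfb1 stayed between 301 and 341 CPM.

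Among ISO classical monocytes, the 344 cells with an Inhba UMI were set beside the 1084 without, at median depths of 10357 and 8347 UMIs. Cells with Inhba had higher levels of Tnf, 2074 against 1380 CPM, of Il6, 205 against 117 CPM, of Osm, 616 against 453 CPM, and of Il10, 61.9 against 40.1 CPM. For Tgfb1 the levels were 347 and 325 CPM. In the Arg1/Spp1 macrophages, 167 cells with and 594 cells without an Inhba UMI had Il6 levels of 110 and 50.2 CPM and Il10 levels of 99.8 and 46.6 CPM. When the same macrophages were split by Il6 instead, Inhba was at 60.6 CPM with and 93.4 CPM without, and split by Tnf it was at 82.1 and 96.8 CPM. In the remaining macrophages Il10 was at 43.2 CPM in cells with and 52.8 CPM in cells without an Inhba UMI. Depth differed between the cells compared and its part in these differences was not tested.

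The genes most like each member were taken over 21 class and library sums with at least 30 cells, as Pearson correlations of log2(CPM + 1) across 12608 genes. These sums share the libraries and differ in depth, so the values are descriptive. Csf2ra, a subunit of the GM-CSF receptor, was most like Tnf (r = 0.965), followed by the LPS co-receptor gene Cd14 (0.949), Alox5ap, Nlrp3 and Clec4a2. Cd44 (0.926), the integrin gene Itgam, the glucose transporter gene Slc2a1, Clec4d and Gp49a were most like Osm. Pdpn (0.942), Vcan, Rai14, the coagulation factor gene F7 and Mmp19 were most like Inhba. Map2k1 (0.902), Arl5c, Jarid2, Tmem251 and Tcp11l1 were most like Tgfb1, and Gm27008 (0.919), Cxcl11, Gm6977, Snx24 and Kcnk13 most like Il10. For Il6 the highest value was 0.776, for Fuom, followed by Ecm1, Fn1, Slc39a1 and Adora2b. The lists depended on the measure. By Spearman correlation only Cd14 stayed among the 5 most similar genes for Tnf and only Itgam for Osm. Those that stayed for the other members were Ecm1 and Fn1 for Il6, Gm27008, Cxcl11 and Gm6977 for Il10, Map2k1 and Arl5c for Tgfb1, and Pdpn and Mmp19 for Inhba.

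Genes of the same pathways were described from lists, with the number at least 2-fold apart among those with at least 20 UMIs. In classical monocytes, where 11.7% of all genes were at least 2-fold higher and 21.0% lower, 8 of 13 receptor genes were at least 2-fold lower in the ISO library and 0 higher, with a median of −1.10 against −0.25 over all genes. They included the gp130 gene Il6st, at 108 and 43.4 CPM (−1.32), Tgfbr2 (−1.16) and the activin receptor genes Acvr1 (−1.22) and Acvr2a (−1.19), with 10 to 56 control UMIs each. The receptor chains Il6ra and Il10ra, named after their values were seen, were both at −1.10. In resident macrophages (6.21% and 10.2%), 0 of 13 receptor genes were at least 2-fold apart, with a median of −0.39 against −0.08. In the pool 6 of 14 were lower and 0 higher, where 24.8% of all genes were lower and 7.35% higher, and Tgfbr2 was at 193 and 48.8 CPM (−1.98). Osmr, which pairs with gp130 to bind OSM, had at most 7 UMIs in any leukocyte class of either library, and 20 UMIs in the 30 control nonleukocytes (96.9 CPM). Of the related ligands in classical monocytes, 5 of 6 were higher, with Lif and Clcf1 of the gp130 family at 1.83 and 1.43 and the TNF family member Tnfsf14 at 1.20, on 5 to 9 control UMIs each. Gdf15, a TGF-β relative, had 2 and 736 UMIs in classical monocytes, while over the whole pool it was at 227 and 97.2 CPM (−1.23).

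Of 15 NF-κB feedback genes and TNF targets in classical monocytes, 2 were higher and 1 lower, against 11.7% and 21.0% of all genes, with a median of 0.07. The higher ones were the inhibitor gene Nfkbia, at 3152 and 7534 CPM (1.26), and Tnip1 (1.23), and the lower one was Birc3 (−1.34). In neutrophils Cflar (2.43), Sod2 (2.19), Nfkbia (1.35) and Nfkbie (1.31) were higher, and the TNFR1 gene Tnfrsf1a was at 638 and 290 CPM (−1.13). Of 15 STAT3 targets in classical monocytes, 2 were higher and 6 lower, against the same 11.7% and 21.0%, with a median of −0.24 against −0.25 over all genes. Timp1, an inhibitor of metalloproteinases, had 0 control and 2770 ISO UMIs, and Il1rn, the IL-1 receptor antagonist, was at 78.9 and 546 CPM (2.77), while Arid5a (−1.99), Sbno2 (−1.61), Cebpd (−1.28) and Bcl3 (−1.17) were lower.

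Of 12 SMAD targets in classical monocytes, 4 were higher and 0 lower, against 11.7% and 21.0% of all genes, with a median of 0.64. Among them, Id2 was at 42.3 and 406 CPM (3.23), the matrix protein gene Tgfbi at 558 and 2661 CPM (2.25) and Smad3 at 1.12 with 5 control UMIs. Among genes of latent TGF-β activation and activin binding, Thbs1, which activates latent TGF-β, was at 221 and 2172 CPM in the pool (3.30), and Fst, which binds activin, had 1 and 85 UMIs. Of 10 mRNA decay genes, 2 were lower and 0 higher in classical monocytes, Zfp36l2 and Zcchc11, both at −1.20, a share near the 21.0% of all genes. In the pool 2 of 10 were lower, beside 24.8% of all genes, Zcchc11 (−1.76) and Zfp36l1 (−1.32), the latter a protein that binds AU-rich elements. The dissociation stress list was at 8249 and 8864 CPM in classical monocytes, at 12725 and 9503 CPM in resident macrophages and at 12281 and 11126 CPM in neutrophils, and its part in these results was not tested.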

How the data were processed

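The deposited values are counts of UMIs per gene and barcode, without normalization. Per the processing notes and the methods, the authors used bcl2fastq 2.19.1.403, UMI-tools 1.0.0, STAR 2.7.3a on mm10 and featureCounts 1.6.4 of Subread, and the annotation release is not given in the sources used here. Both libraries, with 1 library per group, were read in full. Barcodes were kept when they had over 500 but below 6000 genes, with mitochondrial UMIs below 25%. Classes were gated on marker lists with at least 2 or 3 different markers each, lymphocytes, neutrophils and mast cells were limited to 20 macrophage UMIs per 10000, and resident and Arg1/Spp1 macrophages were split at 10 and 50. The members, lists and gates were chosen with earlier results of these data known. UMIs were summed per class and library, 0.5 UMI was added, and ratios were compared for genes with at least 20 UMIs over both libraries and classes of at least 20 cells. For values against 0 the floor was 3 counts in the library.

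Pathway genes were named where they had at least 50 UMIs in the larger library and a log2 ratio of 1 or more in size, at most 4 each way per list, with the 5 genes most similar to each member. Cells were thinned at random with seed 1. The step that compares classes was tested on simulated data. Python 3.11.15, numpy 2.4.6, scipy 1.17.1, pandas 2.3.3 and matplotlib 3.10.9 were used. Gene positions and 3' UTRs came from GENCODE release M21 on GRCm38 and promoters from RefSeq, where 4 of the 6 members matched. Alternatives covered filters, scaling, thinning, gates, barcodes of 2 lineages, class mix and free RNA. Protein levels, FACS and cardiac function were not analysed here.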

Additional observations from a re-analysis of the deposited data

How the results depend on the processing

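Over all kept cells, each of the 6 ratios kept its direction under every alternative run. With all deposited barcodes Tnf was at 1.80 and Il6 at 1.41. With cells thinned to 1000 UMIs before summing, Tnf was at 2.33, Osm 2.31, Il10 2.06, Tgfb1 0.59 and Inhba 7.03. Without mitochondrial genes and Gm26924 in the totals, Tnf was at 1.78, Il6 1.22, Osm 2.37 and Tgfb1 0.38. Centred on the median of all genes, the ratios were Tnf 2.39, Il6 1.83, Osm 2.97, Il10 1.93, Tgfb1 0.99 and Inhba 6.46. Without barcodes of 2 lineages, Tnf was at 1.96, Il6 1.08, Osm 2.53 and Inhba 6.54, and without the 5% deepest barcodes Tnf was at 2.02 and Inhba at 6.72. In the myeloid gates only, Tnf was at 1.23, Il6 0.60, Osm 1.997, Il10 0.98 and Tgfb1 0.41. With the control class shares in both libraries, the ratios were Tnf 1.19, Il6 0.65, Osm 1.79, Il10 0.88, Tgfb1 0.28 and Inhba 4.89. Without the mast cell or basophil gate, an alternative chosen after seeing the data, Il6 was at 1.73 and Osm at 2.54.

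By class, the direction of Il6 turned in T cells (0.98) and ILC2 (0.027) when barcodes of 2 lineages were kept in their class. With gate cuts set at 0.5 times it turned for Il6 in T cells (0.57), Il6 in conventional DC 2 (0.23) and Il10 in conventional DC 2 (1.88). With cuts set at 2 times it turned for Il6 in conventional DC 1 (-0.58, from 4 and 1 UMIs), and Inhba and Il10 in conventional DC 2 had 0 UMIs in both libraries and gave no value. The cause was not tested, and these class values rest on few cells. Cuts at 2 times and at 0.5 times moved 22 and 17 further class values, of which Il6 in classical monocytes was at 0.28 with the lower cuts. A limit of 60 in place of 20 macrophage UMIs per 10000, also added after seeing the data, moved 3 of 56 class values, among them Tnf in neutrophils from 2.75 to 2.08, and Tnf in neutrophils was at 1.67 with barcodes of 2 lineages kept. Adding the ungated barcodes to the pool put Il6 at 1.05.

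No paired analysis was possible because each group had 1 library, and leaving out a library was not run for the same reason. The depth limits Inhba in the control monocyte, macrophage, neutrophil and conventional DC classes, which held 0 to 7 UMIs each, and Il10 in control monocytes, which held 0.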

Other observations

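The 827 ungated ISO barcodes, which passed no marker cut, held 17.7% of the Tnf, 14.1% of the Il6, 14.7% of the Osm, 4.82% of the Il10, 14.0% of the Tgfb1 and 18.2% of the Inhba UMIs of the ISO library. Tnf was at 1658 CPM in them and Inhba at 93.9 CPM. Their 10 leading genes held Igha, Ccl17 and Itgax and none of the listed markers, so they were given no name. The control library held 140 such barcodes, with Tnf at 752 CPM, Il6 at 147 CPM and 0 Inhba UMIs.

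Il12b, which encodes a subunit of IL-12 and IL-23 and was on the list of related ligands, had 1 UMI in 664 control and 72 UMIs in 246 ISO resident macrophages. In neutrophils Gdf15 had 0 UMIs in 113 control and 61 UMIs in 64 ISO cells. Of the receptors, Lifr, named after its values were seen, was highest in the ISO library in plasmacytoid DC, at 461 CPM, followed by resident macrophages at 211 CPM.

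Il6 was held by few cells, fewest in the control library. At least 10 Il6 UMIs were found in 31 control barcodes, 8 of them in the mast cell or basophil gate, and in 135 ISO barcodes, 58 of them classical monocytes. Over all kept cells, 26 of 5641 control cells (0.461%) and 210 of 5437 ISO cells (3.86%) held 50% of the Il6 UMIs. Il10 and Inhba were held by fewer cells still. For Il10, 20 control and 65 ISO cells held 50% of the UMIs, and for Inhba 3 control and 91 ISO cells.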
